A study of Mus musculus with 167 samples.

Results

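CXC chemokines are small secreted proteins that steer leukocyte migration through G-protein-coupled receptors. The 9 genes described here are the mouse CXC ligands Cxcl1, Cxcl2, Cxcl5, Cxcl9, Cxcl10, Cxcl12, Cxcl13, Cxcl14 and Cxcl16. They were found by matching their symbols to the Ensembl identifiers of a gene count table, and all 9 were found among its 57010 identifiers. The table held bulk RNA-seq libraries in 41 groups of 3 to 5.

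The study turned mouse embryonic fibroblasts (MEFs) towards the dendritic cell subsets with sets of 3 transcription factors carried by lentivirus, and asked which sets act as blueprints for which subset. MEFs of the C9a line were homozygous for both Clec9a(Cre/Cre) and Rosa26(tdTomato/tdTomato), so that tdTomato marks cells in which Cre was made from the Clec9a locus, a dendritic cell gene. MEFs of the hCD2 line were heterozygous, hCD2(Cre/WT) Rosa26(YFP/WT) on C57BL/6, and carried YFP as the reporter of hCD2-driven Cre. C9a MEFs received PIB (Pu.1, Irf8, Batf3), PIP (Pu.1, Irf4, Prdm1) or SII (Spib, Irf8, Ikzf2), and hCD2 MEFs received SII. Cells were sorted 3, 6 and 9 days after transduction as CD45+, reporter+ or reporter+ CD45+ cells. The untransduced MEFs of each line (C9a.MEF and hCD2.MEF, 4 libraries each) were sorted as reporter- CD45- cells and carried the same Cre and reporter alleles as the transduced cells of their line. Wildtype splenic type 1 and type 2 conventional dendritic cells (cDC1 and cDC2, 3 libraries each) and plasmacytoid dendritic cells (pDC, 5 libraries) were sorted by surface markers. The labels gave no age for the animals, and did not say whether the libraries of a group came from separate cultures or animals, so that p-values measure the spread between these libraries, which may be technical. RNA came from 5000 sorted cells per extraction.

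The 9 ligands fall into groups by receptor and inducer. Cxcl1, Cxcl2 and Cxcl5 act on Cxcr2 and draw neutrophils, and their genes are classical targets of NF-kappaB. Cxcl9 and Cxcl10 act on Cxcr3 and draw activated T and NK cells. Both are induced by interferons, and in tumours Cxcl9 and Cxcl10 from dendritic cells and macrophages bring in T cells. Cxcl12 acts on Cxcr4, is scavenged by Ackr3 and is a product of fibroblasts and other stroma. Cxcl13 acts on Cxcr5 and draws B cells and follicular helper T cells into follicles. Cxcl14 is a ligand of fibroblasts and epithelia whose receptor is debated. Cxcl16 is made as a transmembrane protein, is shed by Adam10 and is the ligand of Cxcr6 on T and NKT cells.

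In GENCODE M21 (GRCm38), 6 of the 9 genes lie on chromosome 5. These are Cxcl5 (chr5:90759360-90761624, + strand), Cxcl1 (chr5:90891241-90893115, +), Cxcl2 (chr5:90903871-90905938, +), Cxcl9 (chr5:92321347-92328079, -), Cxcl10 (chr5:92346638-92348889, -) and Cxcl13 (chr5:95956951-95961068, +). Cxcl12 is at chr6:117168535-117181367 (+), Cxcl14 at chr13:56288643-56296551 (-) and Cxcl16 at chr11:70453983-70459984 (-). All 9 are protein-coding, and counts were of whole genes. Cxcl16 shares 552 exonic bases with Zmynd15, and Cxcl10 shares fewer with Art3, both on the opposite strand. How the counting used the strand is not given in the sources used here.

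The promoters of 5 genes that the comparisons between factor sets turn on are shown as the stretch from 250 to 31 bases before the RefSeq start of the gene (GRCm38.p6), 5′ to 3′ on the strand of the gene. Capitals mark matches to the kappaB motif of NF-kappaB and to the interferon-stimulated response element (ISRE; GAAA, 2 bases of any kind, GAAA), searched on both strands.
Cxcl1, chr5:90890995-90891214 (+): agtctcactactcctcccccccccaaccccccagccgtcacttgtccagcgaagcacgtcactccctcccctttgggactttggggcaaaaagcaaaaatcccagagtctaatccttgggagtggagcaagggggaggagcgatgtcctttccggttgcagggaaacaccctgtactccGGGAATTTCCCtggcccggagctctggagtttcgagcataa
Cxcl2, chr5:90903649-90903868 (+): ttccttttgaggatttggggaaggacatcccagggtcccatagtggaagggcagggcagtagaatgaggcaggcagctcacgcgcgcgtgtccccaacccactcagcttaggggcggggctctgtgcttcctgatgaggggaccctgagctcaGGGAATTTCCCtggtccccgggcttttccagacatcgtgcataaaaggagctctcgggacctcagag
Cxcl9, chr5:92328110-92328329 (-): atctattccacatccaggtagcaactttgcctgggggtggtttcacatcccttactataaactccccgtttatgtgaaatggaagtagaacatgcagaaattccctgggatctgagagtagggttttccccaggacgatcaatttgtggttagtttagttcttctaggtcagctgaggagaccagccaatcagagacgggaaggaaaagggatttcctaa
Cxcl10, chr5:92348920-92349139 (-): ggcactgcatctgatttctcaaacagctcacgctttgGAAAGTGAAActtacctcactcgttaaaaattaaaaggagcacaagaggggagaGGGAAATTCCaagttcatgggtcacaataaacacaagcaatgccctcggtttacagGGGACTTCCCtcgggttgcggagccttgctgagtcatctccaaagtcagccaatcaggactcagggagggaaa
Cxcl13, chr5:95956689-95956908 (+): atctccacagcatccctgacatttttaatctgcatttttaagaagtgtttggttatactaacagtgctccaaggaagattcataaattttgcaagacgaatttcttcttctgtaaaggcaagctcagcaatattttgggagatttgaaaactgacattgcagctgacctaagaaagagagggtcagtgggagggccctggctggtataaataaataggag
Cxcl1 and Cxcl2 carry the same kappaB match, GGGAATTTCCC, which matches on both strands with an overlap. Cxcl10 carries 2 kappaB matches, GGGAAATTCC and GGGACTTCCC, and 1 ISRE match, GAAAGTGAAA. An ISRE match, GAAACAGAAA, was also found in Cxcl14, whose window is not shown. An AP-1 match (TGANTCA) was found in Cxcl10, and TATAAA was found in Cxcl9 and Cxcl13. The windows of Cxcl9 and Cxcl13 held neither a kappaB nor an ISRE match of these letters, and no match was found for the PU.1-IRF composite element (GGAA, 2 bases of any kind, GAAA) in any of the 7 promoters searched. Of 32851 mouse promoters of the same length, 3.45% held the kappaB motif, 2.63% the ISRE, 2.00% the composite element, 6.12% the AP-1 motif and 9.95% TATAAA. A match describes the letters only. Promoters of Cxcl5 and Cxcl16 were not analysed here.

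Library totals ran from 1146927 to 21976374 counts with a median of 10960122, so that 3 counts, the upper limit that a count of 0 allows, correspond to 0.137 to 2.62 CPM (counts scaled to a library total of 1000000). Such floors cover counting error alone. In the reporter+ CD45+ libraries of day 9, 1 factor of each set is given here, and each went with the label. Spi1 (Pu.1) was at 157.2 to 274.9 CPM in PIB, Irf4 at 333 to 401 in PIP and Spib at 66.7 to 119.4 in C9a.SII. Pu.1 is shared by PIB and PIP and does not tell them apart. The check of labels over all transduced libraries used Irf4 and Spib alone. The splenic subsets carried their sort markers, with Xcr1 at 238 to 272 CPM in cDC1, Itgam (CD11b) at 246 to 257 in cDC2 and Siglech at 825 to 2857 in pDC. Xcr1 was at 129.5 to 132.2 CPM in PIB day 9 cells, and Clec9a, which carries the Cre allele in this line, at 0 to 0.0858. In 3 libraries of the reporter gate (PIB day 6 replicate 4, PIP day 3 replicate 5 and C9a.SII day 6 replicate 5) the factors went against the label. These 3 entered no comparison between groups other than a fit over all groups, and were kept in the group means used for likeness of pattern. In C9a.MEF the summed level of the 12 fibroblast genes on a marker list was 17644 to 19013 CPM, and in the day 9 reporter+ CD45+ cells it was 6616 to 8122 in PIB, 1107 to 1401 in PIP and 1919 to 2446 in C9a.SII. In such bulk samples, fewer cells of a type and less RNA per cell cannot be told apart.

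Several reporter+ CD45+ libraries stood apart from their group. In hCD2.SII day 9, replicate 1 had a fibroblast sum of 8545 CPM against 853 and 787 in the other two, and Ptprc, which encodes CD45, was at 71.2 CPM against 229 and 271. In PIP day 3, replicate 3 had a fibroblast sum of 5073 CPM against 2758 and 2834, with Ptprc at 14.1 CPM against 84.4 and 82.6. C9a.SII day 3 replicate 2 had Ptprc at 1.52 CPM, against 114.8 to 334.2 in the other 3, although its gate was CD45+. C9a.SII day 9 replicate 1 had the fewest counts of all (1146927). Of the pDC libraries, replicate 1 had a fibroblast sum of 1228 CPM against 25.5 to 116.1. Without replicate 2 of C9a.SII day 3, or replicate 1 of day 9, the same number of chemokines (7) fell against C9a.MEF. Results that change with these libraries are given with and without them. The part of these marker differences in the results was not tested.

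Against untransduced MEFs, the 3 factor sets gave 3 different chemokine profiles in reporter+ CD45+ cells. A gene was called where edgeR's quasi-likelihood test gave a Benjamini-Hochberg adjusted p under 0.05 over all genes tested and the change was at least 2-fold. In PIB cells, Cxcl9, Cxcl13 and Cxcl16 rose and Cxcl1, Cxcl5, Cxcl10, Cxcl12 and Cxcl14 fell, at day 3 and at day 9, which leaves only Cxcl2 uncalled among the 9. In PIP cells, Cxcl2 and Cxcl16 rose and Cxcl5, Cxcl10, Cxcl12 and Cxcl14 fell, again at both days. In C9a.SII cells, 7 of the 8 genes tested fell and none rose, and the exception was Cxcl16. All these comparisons share the same 4 C9a.MEF libraries.

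Of all genes tested, 22.8% were called in PIB at day 3 and 21.8% at day 9, against 8 of 9 chemokines at each day. By direction, 11.9% of all genes were higher and 10.9% lower at day 3, and 10.4% and 11.4% at day 9, beside 3 chemokines higher and 5 lower. Cxcl13, at 0 in C9a.MEF, passed the low-count filter through PIB and could only be called higher. The shares of all genes were 21.8% at day 3 and 29.6% at day 9 in PIP, where 6 of 8 chemokines tested were called, and 17.6% and 21.4% in C9a.SII, where 7 of 8 were. In PIP 10.6% were higher and 11.1% lower at day 3, and 15.2% and 14.5% at day 9, beside 2 chemokines higher and 4 lower. In C9a.SII 8.84% were higher and 8.71% lower at day 3, and 10.5% and 10.9% at day 9, beside 7 chemokines lower and none higher. Cxcl9, with at most 3 counts in any C9a.SII library of day 9, passed through the MEFs and could then only be called lower. The median log2 fold change of the chemokines tested was -1.51 in PIB, -1.20 in PIP and -3.77 in C9a.SII at day 9, beside medians of all genes of 0.00, 0.05 and 0.03. In hCD2.SII at day 3, 6 of 7 chemokines tested fell, where 24.1% of all genes were called (10.8% higher, 13.3% lower).

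Between the factor sets at day 9, 5 of 9 chemokines were higher in PIB than in PIP (Cxcl5, Cxcl9, Cxcl12, Cxcl13 and Cxcl14) and 3 lower (Cxcl2, Cxcl10 and Cxcl16), where 10.6% of all genes were higher and 11% lower. PIB exceeded C9a.SII in 6 of 9 (Cxcl1, Cxcl2, Cxcl5, Cxcl9, Cxcl13 and Cxcl16) and lay below it in none, where 8.57% of all genes were higher and 9.92% lower. PIP exceeded C9a.SII in 5 of 8 (Cxcl1, Cxcl2, Cxcl9, Cxcl10 and Cxcl16), where 10.9% of all genes were higher, and lay below it in Cxcl14 alone, where 11.5% were lower. Cxcl14 in the last comparison was at -1.56 ± 0.51 (log2, adjusted p = 0.027), a call lost without replicate 2 or 4 of PIP or replicate 2 of C9a.SII (adjusted p from 0.0608 to 0.0809). Cxcl13 in both PIB comparisons and Cxcl9 in both C9a.SII comparisons were near 0 in the lower group and could only be called in 1 direction. A single fit over all groups called 3 chemokines higher in PIB than in PIP, without Cxcl5 (2.08 ± 0.80, adjusted p = 0.0512) and Cxcl14. In that fit Cxcl16 was not called between PIB and PIP (-1.01 ± 0.44, adjusted p = 0.0919), nor Cxcl5 between PIB and C9a.SII (1.54 ± 0.81, adjusted p = 0.17) or Cxcl14 between PIP and C9a.SII (adjusted p = 0.279). The same PIB, PIP and C9a.SII libraries serve in 2 of these comparisons each.

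**Figure D1:**
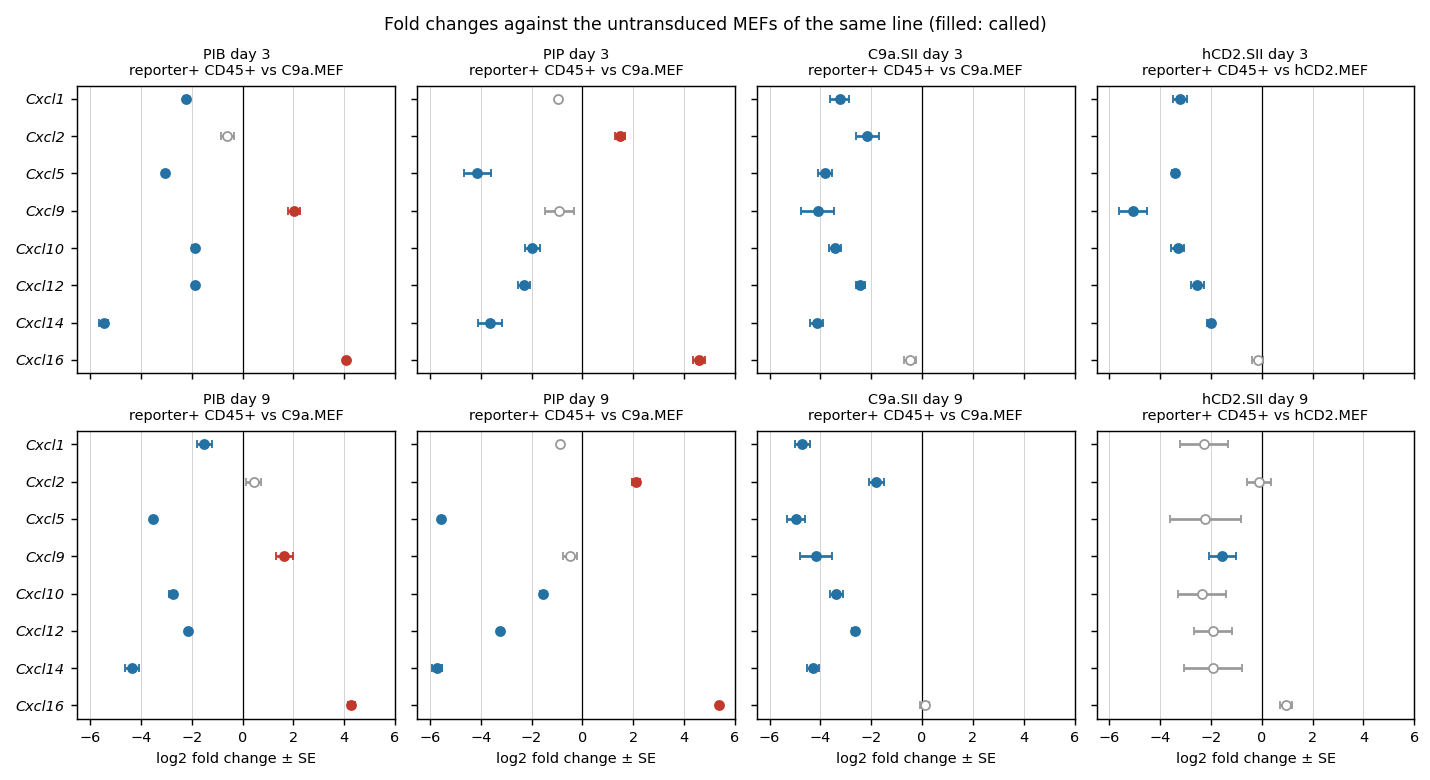
Log2 fold change (x axis, with its standard error as a bar) of 8 CXC chemokines in reporter+ CD45+ cells against the untransduced MEFs of the same line, for 4 transduced groups (columns) at day 3 (upper row) and day 9 (lower row). Filled points were called (red higher, blue lower) and open points were not, and Cxcl13 is left out because its C9a.MEF libraries were all at 0. Cxcl16 is far to the right in PIB (4.28 at day 9) and PIP (5.36) and near 0 in C9a.SII (0.10).

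The 3 neutrophil-attracting ligands all fell in C9a.SII, while in PIP Cxcl2 rose and Cxcl5 fell. Cxcl1 was at 104.6, 107.7, 113.98 and 100.7 CPM in the 4 C9a.MEF libraries. In reporter+ CD45+ PIB cells it was at 19.5, 20.1, 17.98 and 19.1 CPM at day 3, and at 37.98, 44.8, 39.1, 42.9 and 12.4 at day 9. No PIB library reached the MEF range, and the fall was -2.25 ± 0.07 (log2, ± SE, adjusted p = 1.7e-11) at day 3 and -1.51 ± 0.31 (adjusted p = 0.0032) at day 9. In PIP cells Cxcl1 was at 46.6, 47.96 and 59.7 CPM at day 3 and at 46.3, 56.5, 41.1 and 55.2 at day 9. All PIP libraries lay below the MEFs, but the change of -0.87 ± 0.07 at day 9 (adjusted p = 2.1e-08) was under 2-fold and was not called. At day 3 it was -0.96 ± 0.08, and it reached -1.04 and was called without replicate 3. In C9a.SII cells Cxcl1 was at 5.97, 16.7, 4.80 and 19.2 CPM at day 3 and at 6.10, 6.27, 2.40 and 2.78 at day 9, a fall of -4.71 ± 0.29 (adjusted p = 1.4e-06).

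Cxcl2 took a different course from Cxcl1 although the genes are neighbours. It was at 3.28, 3.93, 3.86 and 3.08 CPM in C9a.MEF and at 11.8, 15.02, 10.5 and 15.1 in PIP day 9 cells, where the groups did not overlap. This was a rise of 2.11 ± 0.15 (log2, adjusted p = 1.2e-09), after 1.48 ± 0.18 at day 3 (adjusted p = 0.00032). In PIB it was at 4.94, 4.03, 5.70, 6.19 and 1.67 CPM at day 9, which straddles the MEFs (0.44 ± 0.30, adjusted p = 0.23). In C9a.SII it was at 0.872, 1.08, 1.20 and 0.643 CPM, below every MEF library, and the fall was -1.80 ± 0.29 (adjusted p = 0.00041). Between the factor sets at day 9, Cxcl2 was lower in PIB than in PIP by -1.65 ± 0.27 (adjusted p = 0.00037), while Cxcl1 differed by -0.61 ± 0.32 (adjusted p = 0.15). The PIP CD45+ gate, in which the reporter was not selected, held the highest Cxcl2 of any group, at 17.9, 20.8, 19.9 and 24.2 CPM at day 9.

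Cxcl5, the third Cxcr2 ligand, fell in all 3 sets. It was at 234, 241, 260 and 219 CPM in C9a.MEF. In PIB it was at 19.7, 19.1, 22.1, 20.02 and 16.8 CPM at day 9, a fall of -3.54 ± 0.08 (log2, adjusted p = 1.9e-12). In PIP it was at 3.69, 4.26, 5.21 and 4.29 CPM, a fall of -5.55 ± 0.09 (adjusted p = 7.7e-18), so that PIB lay above PIP by 2.03 ± 0.13 (adjusted p = 2.7e-08). The libraries of C9a.SII spread more widely, at 2.62, 11.9, 8.13 and 3.96 CPM (-4.96 ± 0.36, adjusted p = 1.2e-05). Per length of transcript, Cxcl5 was the highest of the 9 in C9a.MEF, with a mean of 128.03 RPKM (CPM divided by the exon length in kilobases), ahead of Cxcl1 at 56.9 and Cxcl12 at 38.5. In PIP day 9 cells its mean was 2.34 RPKM, below Cxcl1 at 26.6 and Cxcl2 at 6.33.

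**Figure D2:**
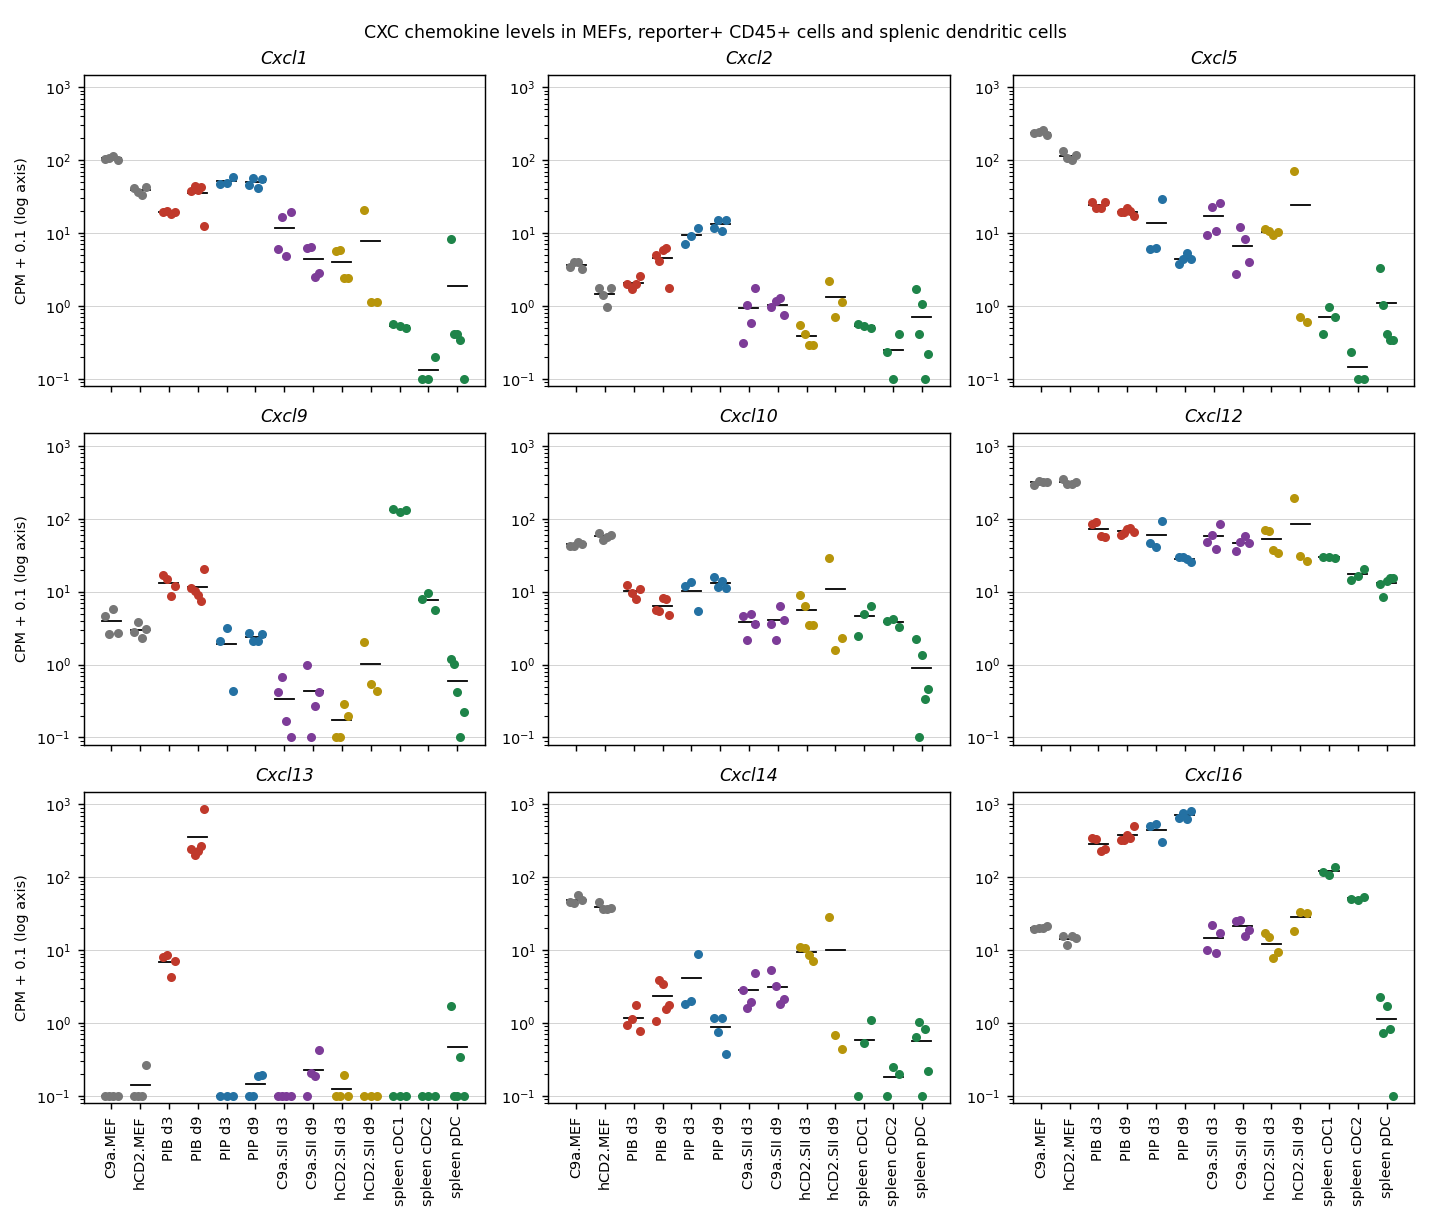
Level of each of the 9 CXC chemokines (y axis, CPM of the library total plus 0.1, log axis) in untransduced MEFs (grey), reporter+ CD45+ cells of PIB (red), PIP (blue), C9a.SII (purple) and hCD2.SII (gold) at days 3 and 9, and splenic dendritic cells (green), with 1 point per library and a black line at the mean. Cxcl13 is high in PIB alone among the groups shown, Cxcl16 in PIB and PIP, and Cxcl9 is highest in splenic cDC1 at 122.6 to 136.96 CPM.

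The interferon-inducible pair separated from each other in PIB. Cxcl9 was at 4.47, 2.50, 5.70 and 2.62 CPM in C9a.MEF and at 16.97, 14.8, 8.57 and 12.03 in PIB day 3 cells, a rise of 2.03 ± 0.24 (log2, adjusted p = 2.3e-05). At day 6 it was at 18.6, 32.3, 19.8 and 24.3 CPM. At day 9 it was at 11.1, 10.1, 8.96, 7.39 and 20.1 CPM, still above every MEF library (1.64 ± 0.34, adjusted p = 0.0019). PIP cells overlapped the MEFs at 2.62, 2.03, 1.98 and 2.56 CPM on day 9 (-0.50 ± 0.27, adjusted p = 0.11). In C9a.SII, the 4 libraries of day 9 held 1, 0, 2 and 3 Cxcl9 counts against 28 to 62 in the MEF libraries, and the gene was called lower (adjusted p = 0.00025). PIB exceeded PIP by 2.17 ± 0.28 (adjusted p = 3.1e-05).

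Cxcl10 fell wherever it was compared with C9a.MEF, in which it was at 42.3, 41.9, 47.9 and 45.6 CPM. PIB cells went from 12.3, 9.50, 7.94 and 10.8 CPM at day 3 to 5.49, 5.41, 8.00, 7.73 and 4.68 at day 9 (-2.75 ± 0.13 against MEFs at day 9, adjusted p = 1.4e-09). PIP cells held more, at 15.8, 11.5, 13.7 and 11.1 CPM at day 9 (-1.53 ± 0.12, adjusted p = 9.4e-09), and PIB was lower than PIP by -1.19 ± 0.18 (adjusted p = 8.8e-05). The order of the pair was thus opposite in the 2 factor sets, with Cxcl9 higher in PIB and Cxcl10 higher in PIP. In C9a.SII Cxcl10 was at 3.49, 2.05, 6.25 and 3.96 CPM at day 9 (-3.38 ± 0.27, adjusted p = 3.8e-06). From day 3 to day 9 Cxcl10 changed differently in PIB and PIP, by -1.31 ± 0.37 in the test of the difference (adjusted p = 0.024, 18.3% of all genes differing). Neither set's own change reached the call, at -0.90 ± 0.18 in PIB and 0.44 ± 0.32 in PIP. The difference was not called without replicate 4 of PIB day 3 (adjusted p = 0.0579) or replicate 1 of PIP day 9 (adjusted p = 0.0511), nor with the replicate number as a block (0.0686) or in 1 fit over all groups (0.313).

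Other genes of the interferon system, on a list of 18 of which 17 were tested, also moved in both directions. The list holds a receptor chain and interferon beta beside interferon-inducible genes, and its counts and medians mix them. In PIB at day 9, 4 rose and 6 fell against C9a.MEF, and the median log2 fold change was -0.10. The gene of the interferon gamma receptor chain, Ifngr1, rose by 2.54 ± 0.06 (log2), and Ifit1 fell by 2.66 ± 0.09. In PIP, 4 rose and 2 fell, among them Ifnb1, which encodes interferon beta, at 6.95 ± 0.27, the antiviral gene Mx1 at 4.23 ± 0.16 and the transcription factor gene Irf1 at 2.67 ± 0.06. In C9a.SII, 1 rose and 10 fell of 16 tested, including Ifit1 at -4.57 ± 0.51 and Isg15 at -4.53 ± 0.26. Cxcl10 fell in all 3 sets, and the list's median beside it was -0.10 in PIB, 0.01 in PIP and -1.37 in C9a.SII.

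The list of 14 NF-kappaB and inflammatory genes gave another pattern, read here beside Cxcl1, Cxcl2 and Cxcl5. In PIB, 5 of 13 tested rose and none fell, with Il1b, which encodes interleukin-1 beta, at 10.26 ± 0.49, Il1a at 4.46 ± 0.68, Tnf at 3.37 ± 0.57 and the feedback inhibitor Tnfaip3 at 2.27 ± 0.08 (log2). In PIP, 3 of 12 rose and 2 fell, with Il1b at 10.34 ± 0.31 and Tnf at 5.85 ± 0.47 against Il6 at -2.55 ± 0.20 and Ptgs2 at -1.68 ± 0.05. In C9a.SII only Tnfaip3 was called of 10 tested, at 1.87 ± 0.09. The list medians were 0.73, 0.49 and 0.41. Any gene of this or the interferon list that was near 0 in C9a.MEF could only be called higher, and the size of its fold is then uncertain. This may hold for Il1b, Il1a, Tnf and Ifnb1, whose MEF levels are not given here. Beside both lists, 10.4% of all genes were higher and 11.4% lower in PIB at day 9. In PIP 15.2% were higher and 14.5% lower, and in C9a.SII 10.5% and 10.9%. In C9a.SII, where Cxcl1, Cxcl2 and Cxcl5 fell, no gene of the NF-kappaB list was called lower, of 10 tested. With so few genes this does not set the list apart from all genes.

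Cxcl12, the stromal ligand of Cxcr4, fell in every set. It was at 293, 325, 321 and 319 CPM in C9a.MEF. At day 9 it was at 60.3, 64.4, 71.97, 74.2 and 66.7 CPM in PIB, a fall of -2.16 ± 0.06 (log2, adjusted p = 8.9e-12). PIP cells held 29.4, 29.4, 28.4 and 25.7 CPM, a fall of -3.25 ± 0.07 (adjusted p = 1.3e-16), and C9a.SII cells 35.7, 47.9, 58.1 and 46.2 CPM, a fall of -2.65 ± 0.11 (adjusted p = 1.9e-08). PIB was higher than PIP by 1.11 ± 0.08 (adjusted p = 5.4e-08). The fibroblast marker sums moved with these levels, being highest in MEFs, intermediate in PIB and lowest in PIP. Of the 12 fibroblast genes 11 fell in PIB, 12 in PIP and 12 in C9a.SII, and of the 10 pan-leukocyte genes 7 of 8 tested rose in PIB, 8 of 9 in PIP and 9 of 10 in C9a.SII. Leukocyte genes near 0 in C9a.MEF, such as Rac2 at 0 to 0.274 CPM, can pass the low-count filter only through the transduced cells. Such genes could only be called higher. The part of the fibroblast and leukocyte genes in the result was not tested. In the PIP day 3 library with few CD45 transcripts and many fibroblast transcripts (replicate 3), Cxcl12 was at 93.3 CPM against 46.8 and 41.002, and the day 3 fall was -2.31 ± 0.23 with it and -2.69 ± 0.07 without it.

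The receptors of Cxcl12 moved in opposite directions. On the list of 8 CXC and atypical receptors only Cxcr4 and Ackr3 were expressed enough to be tested against C9a.MEF at day 9. Cxcr4 rose in PIB (6.87 ± 0.66, log2), PIP (7.01 ± 0.55) and C9a.SII (5.53 ± 0.71), reaching means of 3.72, 3.92 and 1.89 CPM on the normalised scale of each fit from a MEF level of at most 0.0919 CPM. Such folds rest on a near-zero denominator and depend on the prior count. Ackr3, the scavenging receptor, fell by 3.15 ± 0.19 in PIB, 3.54 ± 0.20 in PIP and 1.73 ± 0.21 in C9a.SII. Of the 5 genes for enzymes that trim or shed chemokines, Dpp4, which inactivates several CXC ligands by removing an N-terminal dipeptide, rose in PIB (2.54 ± 0.16) and C9a.SII (3.20 ± 0.20). Mmp9 rose in PIP (3.38 ± 0.14) and fell in C9a.SII (-2.87 ± 0.70), and Cpm rose in PIP (3.30 ± 0.22) and C9a.SII (3.91 ± 0.32). Adam10 and Adam17 were not called in any of the 3.

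Cxcl13 was the most selective of the 9 between the factor sets. All 4 C9a.MEF libraries held 0 counts, as did all cDC1 and cDC2 libraries. Reporter+ CD45+ PIB cells held 7.85, 8.51, 4.18 and 6.98 CPM at day 3, 190, 173, 207 and 180 at day 6, and 245, 202, 227, 273 and 856 at day 9. Every PIB library of this gate was above every MEF library. The mean at day 9 was at least 1308-fold higher than C9a.MEF, and at day 3 at least 24.96-fold higher, taking 3 counts per library in the shallowest MEF library as the floor (0.276 CPM). Without replicate 5 of day 9 the bound was 858-fold, and for the lowest library of day 9 it was 732-fold. edgeR called both (adjusted p = 0.0014 at day 9 and 5.7e-08 at day 3), and the fitted fold, which depends on the prior count at a level of 0, is not given.

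In the other sets Cxcl13 stayed at or near 0. The PIP and the C9a.SII library whose factors went against the label held 1 and 0 counts and are left out of the following numbers. Over all days and gates, 29 of 37 PIP libraries, 29 of 37 C9a.SII libraries and 26 of 35 hCD2.SII libraries held no count. The highest was 10 counts (0.853 CPM), in a C9a.SII library of the reporter gate. In the reporter+ CD45+ cells of day 9, PIP libraries held 0, 0, 1 and 1 counts and C9a.SII libraries 0, 1, 1 and 3. Levels in these sets were not detectable above what a count of 0 allows, other than in that single library. PIB was called higher than PIP (adjusted p = 2.4e-05, 21.6% of all genes called) and than C9a.SII (adjusted p = 1.7e-05, 18.5% of all genes called).

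Between day 3 and day 9, Cxcl13 was the only chemokine called in PIB, with a rise of 5.44 ± 0.59 (log2, adjusted p = 0.00032), where 12.1% of all genes were called (3.67% higher, 8.47% lower). The highest library, replicate 5 of day 9 at 856 CPM, was also the one with the lowest Cxcl1 (12.4 CPM) and the highest Cxcl9 (20.1 CPM) and Cxcl16 (506 CPM) of its group. Without it Cxcl13 was still called (4.87 ± 0.12), and Cxcl2 then was too (1.22 ± 0.24, adjusted p = 0.00136, against 1.00 ± 0.35 with it, adjusted p = 0.044, and 1.19 with the replicate number as a block, adjusted p = 0.00442). Cxcl2 was also called without replicate 4 of day 3 (1.20). By edgeR no chemokine was called between the days in PIP (6.21% of all genes called, 3.25% higher and 2.95% lower), C9a.SII (0.103%, 0.0965% higher and 0.00643% lower) or hCD2.SII (6.55%, 4.48% higher and 2.07% lower). The unadjusted p was under 0.05 for 5 chemokines in PIP, 2 in C9a.SII and 1 in hCD2.SII, and the Wald test of DESeq2 called 2 lower in PIP and 1 higher in hCD2.SII. In PIP, Cxcl12 was lower at day 9 by -0.95 ± 0.23 (adjusted p = 0.031, under 2-fold), and it was called without replicate 1 (-1.08) or replicate 2 (-1.13) of day 3. In hCD2.SII, leaving out replicate 1 of day 9 gave 4 chemokines lower (Cxcl1, Cxcl5, Cxcl10 and Cxcl14, the last at -4.30) and Cxcl16 higher (1.37), where 15.7% of all genes were called.

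The summed level of the macrophage and monocyte markers rose beside Cxcl13 in PIB. It was also above MEFs in PIP and C9a.SII, where Cxcl13 stayed at or near 0. Over 10 genes the sum was 10.8 to 12.9 CPM in C9a.MEF, 84.3 to 132.8 in PIB at day 3 and 733 to 1058 at day 9, against 100.4 to 154.7 in PIP and 73.6 to 2155 in C9a.SII at day 9. Most of the PIB sum was Lyz2, at 650 to 898 CPM, while Adgre1, which encodes F4/80, was at 0.334 to 0.773 CPM and Cd163 at 0 to 0.318. Of the 10, 6 rose in PIB at day 9, namely Csf1r, Lyz2, Cd68, Mrc1, Cd14 and Marco, where 10.4% of all genes were higher. Marco, at 0 to 0.184 CPM in C9a.MEF, could only be called higher. In the day 9 reporter+ CD45+ cells Marco was at 4.55 to 16.5 CPM in PIB and at 17.6 to 53.5 in PIP. Adgre1 was at 11.5 to 26.9 CPM in those of C9a.SII. Among genes of splenic stroma, the tissue in which follicular Cxcl13 is normally made, Ccl21a was at 0 and Ccl19 and Madcam1 were at no more than 0.334 CPM in the PIB day 9 cells. Markers of B cells (4 genes, summed level 0.223 to 0.601 CPM), T and NK cells (5 genes, 0.892 to 1.72) and granulocytes (7 genes, 0.557 to 10.4), endothelium (5 genes, 4.06 to 7.90) and epithelium (4 genes, 2.00 to 4.30) were low there. The part of these markers in the Cxcl13 result was not tested.

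**Figure D3:**
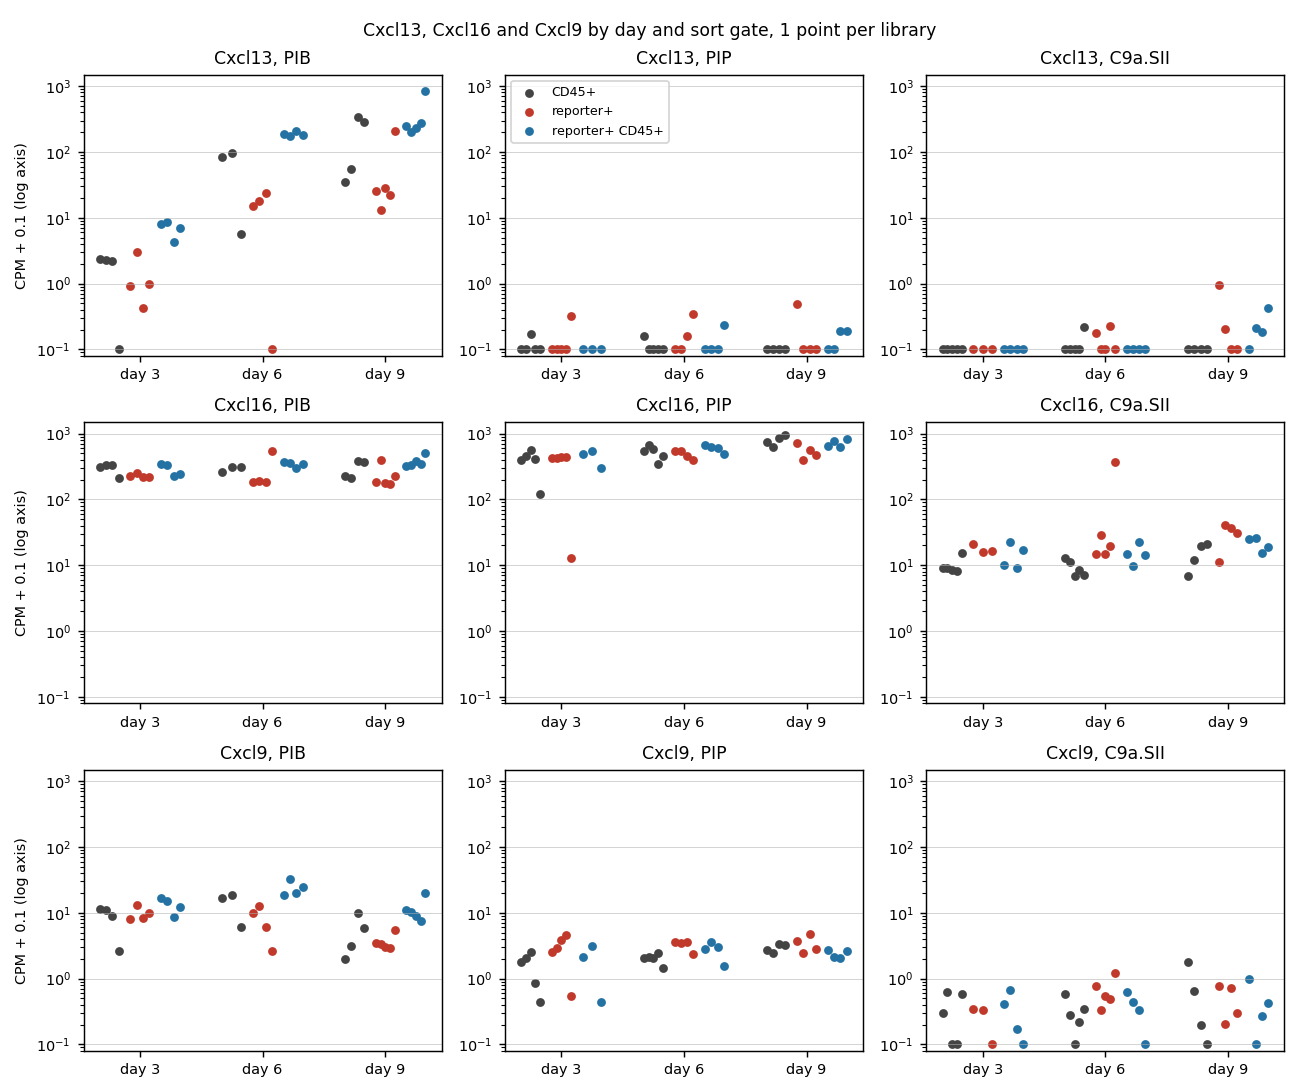
Cxcl13, Cxcl16 and Cxcl9 (rows; y axis, CPM plus 0.1, log axis) by day (x axis) and sort gate (colour) in PIB, PIP and C9a.SII (columns), with 1 point per library. In PIB the reporter+ CD45+ points of Cxcl13 climb from 4.18 to 8.51 CPM at day 3 to 202 to 856 CPM at day 9, and Cxcl16 is flat; the 3 libraries whose factors went against the label are included.

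Between the gates of PIB, Cxcl9 and Cxcl14 were called, and Cxcl13 was not with all libraries. At day 9 the tdTomato+ gate, sorted without CD45, held 25.6, 13.0, 28.3, 21.7 and 206 CPM of Cxcl13, and its highest library was replicate 5. That library was also apart in its macrophage sum, at 742 CPM against 149.4 to 343. The other 4 lay below every tdTomato+ CD45+ library, and replicate 5 overlapped them, at 206 against a lowest value of 202 CPM. The difference was 2.68 ± 0.84 (log2, adjusted p = 0.12) with all libraries and 3.99 ± 0.52 (adjusted p = 0.00268) without replicate 5 of the tdTomato+ gate. With the replicate number as a block it was 3.20 (adjusted p = 0.00325). Cxcl9 was higher in the CD45+ part by 1.74 ± 0.26 (adjusted p = 0.0028), with 2.84 to 5.40 CPM in the tdTomato+ gate, where 1.7% of all genes were called, 0.94% higher and 0.762% lower. Cxcl14 was lower by -2.12 ± 0.46 (adjusted p = 0.023), a call lost without replicate 1, 4 or 5 of the tdTomato+ CD45+ gate or replicate 3 of the tdTomato+ gate (adjusted p from 0.0502 to 0.0728). Cxcl14 was also not called with the replicate number as a block (-2.08 ± 0.53, adjusted p = 0.0803), without the low-count filter (0.127) or in 1 fit over all groups (0.18). Cxcl16 was at 0.75 ± 0.22 (adjusted p = 0.084), and was called without replicate 2 of the tdTomato+ gate (1.02, adjusted p = 0.00025). The CD45+ gate of PIB at day 9 was split in Cxcl13, at 35.3 and 55.5 CPM in 2 libraries and 338 and 280 in the other two.

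In PIP no chemokine was called between the tdTomato+ CD45+ and the tdTomato+ cells at day 9 by edgeR (0.0122% of all genes called, all of them higher), nor in C9a.SII (0.148%, 0.115% higher and 0.0321% lower). At an unadjusted p under 0.05 there were 2 in PIP, Cxcl2 and Cxcl16, and 2 in C9a.SII, Cxcl1 and Cxcl2. The Wald test of DESeq2 called 2 lower in C9a.SII and none in PIP. Cxcl2 in C9a.SII was at -1.98 ± 0.37 (log2, adjusted p = 0.071), with 0.643 to 1.20 CPM in the tdTomato+ CD45+ gate.

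Cxcl14, which is expressed by fibroblasts, fell in all 3 C9a sets. It was at 46.3, 44.3, 56.4 and 48.8 CPM in C9a.MEF. PIB cells held 0.856, 1.06, 1.67 and 0.679 CPM at day 3 and 0.955, 3.86, 3.33, 1.46 and 1.67 at day 9 (-4.35 ± 0.27, log2, adjusted p = 3.6e-07). PIP cells held 1.71, 1.91 and 8.64 CPM at day 3, where the highest is again replicate 3, and 1.08, 0.656, 1.08 and 0.274 at day 9 (-5.74 ± 0.20, adjusted p = 2.5e-12). C9a.SII cells held 5.23, 3.13, 1.71 and 2.03 CPM at day 9 (-4.29 ± 0.23, adjusted p = 1.2e-07). PIB was called higher than PIP by 1.39 ± 0.48 (adjusted p = 0.027), although the libraries of the groups overlapped and the call was lost without replicate 2 or 3 of PIB or replicate 2 or 4 of PIP (adjusted p from 0.0672 to 0.0748). The change from day 3 to day 9 differed between PIB and PIP by 3.17 ± 0.82 (adjusted p = 0.016), with own changes of 0.97 ± 0.47 in PIB and -2.18 ± 0.66 in PIP, neither of them called. Without replicate 3 of PIP day 3 the difference was 2.23 ± 0.72 (adjusted p = 0.0458) and the change in PIP -1.14 ± 0.48. In 1 fit over all groups the difference was not called (3.32 ± 1.28, adjusted p = 0.118).

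Cxcl16 rose in PIB and PIP, the sets that contain Pu.1. These sets differ from SII in further factors, from which Pu.1 cannot be told apart. In hCD2.SII, without Pu.1, Cxcl16 lay above all hCD2.MEF libraries at day 9, by under 2-fold with all libraries (given below). It was at 19.2, 20.3, 20.04 and 21.1 CPM in C9a.MEF. PIB cells held 344, 336, 231 and 246 CPM at day 3 and 325, 330, 380, 345 and 506 at day 9 (4.28 ± 0.12, log2, adjusted p = 7.1e-11). PIP cells held 499, 545 and 301 CPM at day 3, 665, 621, 609 and 489 at day 6 and 643, 766, 626 and 816 at day 9 (5.36 ± 0.07, adjusted p = 1.5e-18). At day 9 PIB was lower than PIP by -1.06 ± 0.11 (adjusted p = 7.5e-06), and the groups did not overlap. Without a filter on low counts this was -0.97, under 2-fold. The lowest PIP day 3 library was replicate 3, and without it the day 3 rise was 4.83 ± 0.06 against 4.60 ± 0.25 with it.

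In C9a.SII, which lacks Pu.1, Cxcl16 was at 25.3, 25.9, 15.4 and 18.9 CPM at day 9 and overlapped the MEFs (0.10 ± 0.17, adjusted p = 0.66). PIB exceeded it by 4.13 ± 0.21 (adjusted p = 1.1e-07) and PIP by 5.20 ± 0.21 (adjusted p = 2.3e-08, 22.5% of all genes called). The level was already near its day 9 value at day 3 in PIB (0.17 ± 0.11 between the days, adjusted p = 0.23), while in PIP the change was 0.76 ± 0.22 (adjusted p = 0.055). The overlapping gene on the other strand, Zmynd15, also rose, by 2.43 ± 0.17 in PIB and 2.10 ± 0.23 in PIP, to 6.31 to 7.39 CPM in PIB at day 9 on the normalised scale from 0.957 to 1.37 in C9a.MEF, so that reads in the shared bases may belong to either. Its levels were far below those of Cxcl16.

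**Figure D4:**
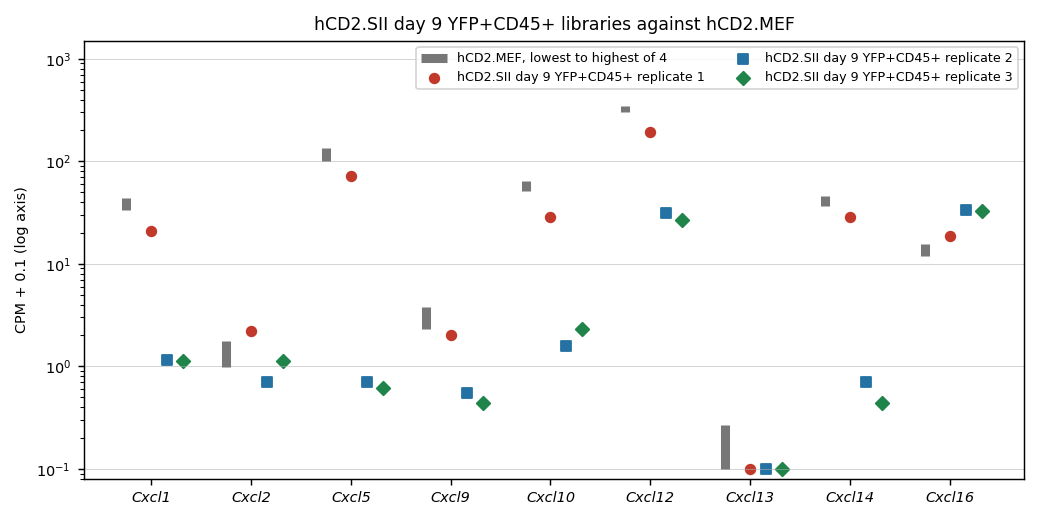
Level of the 9 CXC chemokines (y axis, CPM plus 0.1, log axis) in the 3 hCD2.SII YFP+ CD45+ libraries of day 9 (red circle replicate 1, blue square replicate 2, green diamond replicate 3), with the range of the 4 hCD2.MEF libraries as a grey bar. Replicate 1 lies near the MEFs for Cxcl5 (71.97 CPM) and Cxcl12 (193 CPM), and replicates 2 and 3 lie far below them (0.598 and 0.510 CPM for Cxcl5).

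In the hCD2 line, 6 chemokines fell in SII cells at day 3, all of them among the 7 that fell in the C9a line, and at day 9 the group was split. At day 3, YFP+ CD45+ libraries held 11.4, 10.6, 9.24 and 10.2 CPM of Cxcl5, against 134.5, 106.3, 100.2 and 119.2 in hCD2.MEF (-3.41 ± 0.11, log2, adjusted p = 1.1e-09), and Cxcl1, Cxcl9, Cxcl10, Cxcl12 and Cxcl14 fell with it by -2.01 to -5.09. At day 9 replicate 1 held 71.97 CPM of Cxcl5, and replicates 2 and 3 held 0.598 and 0.510. Cxcl1 (20.7, 1.05 and 1.02 CPM), Cxcl10 (28.8, 1.495 and 2.21), Cxcl12 (193, 31.3 and 26.7) and Cxcl14 (28.6, 0.598 and 0.340) were split the same way, and replicate 1 was the library with the high fibroblast sum.

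With all 3 libraries only Cxcl9 was called lower against hCD2.MEF at day 9 (-1.56 ± 0.53, adjusted p = 0.048), where 19.2% of all genes were called (10.8% higher, 8.41% lower), and with the replicate number as a block none was (Cxcl9 -1.71 ± 0.61, adjusted p = 0.0884). The call of Cxcl9 was also lost without any one hCD2.MEF library or without replicate 2 or 3 of hCD2.SII (adjusted p from 0.0675 to 0.144). Cxcl9 was at 2.21 to 3.73 CPM in hCD2.MEF and at 0 to 1.92 over all days and gates of hCD2.SII. There, 19 of 35 libraries held at most 3 counts. Its calls at day 3 and day 9 are limited by these low levels. Without replicate 1, 6 chemokines were lower and Cxcl16 was higher (1.14 ± 0.14, adjusted p = 1.11e-05), where 32.9% of all genes were called. The falls were then -5.27 for Cxcl1, -7.73 for Cxcl5, -5.03 for Cxcl10, -3.51 for Cxcl12 and -6.38 for Cxcl14, with adjusted p from 3.19e-10 to 7.97e-12. Every fit without replicate 1 of hCD2.SII day 9 rests on replicates 2 and 3 alone in that group. The p-values take no account of the choice of the library left out. Cxcl16 was at 18.4, 33.5 and 32.6 CPM against 15.6, 11.8, 15.5 and 14.5 in hCD2.MEF, above all MEF libraries (0.96 ± 0.22 with all 3, adjusted p = 0.011, under 2-fold). The SII effect of day 9 was also compared between the lines. No chemokine differed with all libraries (0.843% of all genes did, and for 4 chemokines, Cxcl1, Cxcl2, Cxcl9 and Cxcl16, the unadjusted p was under 0.05), and without replicate 1 of hCD2.SII 5 did, where 8.69% of all genes differed, among them Cxcl16 at -1.10 ± 0.23 (adjusted p = 0.00508). The differences of Cxcl5, Cxcl10, Cxcl12 and Cxcl14 then changed sign and were called, at 2.71, 1.59, 0.80 and 2.04, C9a line minus hCD2 line.

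The YFP+ gate of the hCD2 line stayed closer to MEFs. At day 9 it held 63.2, 62.02, 61.4 and 69.2 CPM of Cxcl5, 226 to 242 CPM of Cxcl12 and 27.3 to 40.7 CPM of Cxcl14, with Ptprc at 0.450 to 0.626 CPM. Against this gate 1 chemokine, Cxcl2, was lower in the YFP+ CD45+ cells (-1.21 ± 0.39, adjusted p = 0.047, 12.2% of all genes called, 8.08% higher and 4.13% lower). That call was lost with the replicate number as a block (-1.39 ± 0.46, adjusted p = 0.111), in 1 fit over all groups (0.115), and without any one YFP+ library or replicate 2 or 3 of the YFP+ CD45+ cells (0.0808 to 0.127). Without replicate 1 of the YFP+ CD45+ cells, 7 were lower and Cxcl16 was higher (1.07 ± 0.13, adjusted p = 9.75e-07), where 28.7% of all genes were called.

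The 2 untransduced lines differed in the Cxcr2 ligands. C9a.MEF exceeded hCD2.MEF in Cxcl1 (1.44 ± 0.07, log2, adjusted p = 1.7e-09; 41.2, 36.6, 33.02 and 43.4 CPM in hCD2.MEF), Cxcl2 (1.31 ± 0.24, adjusted p = 0.0011) and Cxcl5 (1.03 ± 0.07, adjusted p = 1.3e-07). Of all genes, 2.93% were called between the lines, 1.5% higher in C9a.MEF and 1.43% lower. Cxcl5 fell just under 2-fold without C9a.MEF replicate 3 (0.98) or hCD2.MEF replicate 2 (0.99) or 3 (0.97), and 1 fit over all groups called none of the 3. Cxcl12 did not differ by the test (-0.03 ± 0.05, adjusted p = 0.69), and Cxcl10, Cxcl14 and Cxcl16 differed by less than 2-fold. The genotypes and reporters differ between the lines, and the labels name the C57BL/6 background for hCD2 only.

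Splenic dendritic cells expressed few of the 9 chemokines. In cDC1, Cxcl9 was at 136.96, 122.6 and 133.3 CPM and Cxcl16 at 118.7, 109.01 and 136.9, and per length these were 43.4 and 40.2 RPKM on average, above Cxcl12 at 3.62 and Cxcl10 at 1.99. In cDC2, Cxcl9 was at 7.76, 9.48 and 5.57 CPM and Cxcl16 at 50.5, 48.7 and 54.4. In pDC, Cxcl9 was at 1.09, 0.932, 0.318, 0 and 0.123 CPM (7 counts in the 5 libraries) and Cxcl16 at 2.18, 0.621, 1.59, 0.725 and 0. The order cDC1, cDC2, pDC held for both genes without overlap between any of the 3 subsets.

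Of the 4 chemokines that could be tested between the splenic subsets, Cxcl9 and Cxcl16 were higher in cDC1 than in cDC2, by 4.15 ± 0.15 (log2, adjusted p = 3.1e-16) and 1.26 ± 0.11 (adjusted p = 1.9e-09), where 34.8% of all genes were called (24.1% higher, 10.7% lower). In 1 fit over all groups Cxcl16 was not called (0.81 ± 0.55, adjusted p = 0.212). Cxcl10 did not differ by the test (0.28 ± 0.37, adjusted p = 0.54), with 2.37, 4.84 and 6.25 CPM in cDC1 and 3.81, 4.06 and 3.20 in cDC2. On the interferon list, 7 of 16 genes tested were lower in cDC1 than in cDC2 and 2 were higher, so that Cxcl9 took the opposite direction from Ifit3 (-4.61 ± 0.24) and Ifit1 (-3.60 ± 0.34). Of the NF-kappaB list, 8 of 11 were lower in cDC1. The receptor gene Cxcr3 was higher in cDC1 by 2.90 ± 0.33. Against pDC, all 4 genes tested were higher in cDC1 (15.8% of all genes called, 7.88% in each direction) and Cxcl9, Cxcl10 and Cxcl16 were higher in cDC2 (34.9%, 11.7% higher and 23.2% lower). Cxcl9, Cxcl10 and Cxcl16 held at most 5 counts in any pDC library, so they passed the filter through the conventional dendritic cells and could only be called higher there. Leaving out single libraries left 2 to 4 chemokines called between cDC1 and pDC, and Cxcl9 and Cxcl16 were among those called each time. Cxcl12 was lost without any one of the 3 cDC1 libraries (adjusted p from 0.0778 to 0.114), without the low-count filter (0.158) and in 1 fit over all groups (0.0531), and Cxcl10 without cDC1 replicate 1 or pDC replicate 2, 3 or 4 (0.0586 to 0.0924) and with the replicate number as a block (0.115). Between cDC2 and pDC, Cxcl10 was lost without any one cDC2 library or pDC replicate 2, 3 or 4 (0.0572 to 0.0997).

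Compared with the splenic subset named for their blueprint, PIB and PIP cells held less Cxcl9 and more Cxcl16. PIB cells of day 9 lay below cDC1 in Cxcl9 by -3.23 ± 0.26 (log2, adjusted p = 4.7e-06) and above it in Cxcl16 by 1.93 ± 0.14 (adjusted p = 3.9e-08). Of all genes, 57.5% were called (25.4% higher, 32.2% lower). Cxcl12 was also called higher and Cxcl10 was not called. Cxcl1, Cxcl2, Cxcl5, Cxcl13 and Cxcl14 held at most 5 counts in any cDC1 library, so they passed the low-count filter through PIB and could only be called higher, as they were. Cxcl13 was at least 547-fold higher than in cDC1 by mean, against a floor of 0.659 CPM, at least 359-fold without replicate 5 of PIB and at least 306-fold in the lowest PIB library. PIP cells lay below cDC2 in Cxcl9 by -1.54 ± 0.25 (adjusted p = 3.9e-05) and above it in Cxcl16 by 3.97 ± 0.11 (adjusted p = 1.7e-14), where 56% of all genes were called (29.3% higher, 26.7% lower). Cxcl10 was also called higher and Cxcl12 was not called. Cxcl1, Cxcl2 and Cxcl5 held at most 3 counts in any cDC2 library and likewise could only be called higher. C9a.SII cells exceeded pDC in Cxcl5, Cxcl12 and Cxcl16 (38.2% of all genes called, 18.4% higher and 19.7% lower), and in Cxcl12 the 35.7 to 58.1 CPM of C9a.SII lay above the 8.38 to 15.5 of pDC. Without replicate 1 of pDC, 6 were called. In pDC, Cxcl5 held at most 6 counts, Cxcl16 at most 5 and Cxcl10 at most 4 in any library, so these also passed the filter through the induced cells. hCD2.SII cells exceeded pDC in Cxcl10, Cxcl12 and Cxcl16 (33% of all genes called, 15.2% higher and 17.7% lower), of which Cxcl10 was lost without pDC replicate 2 (adjusted p = 0.051) or 4 (0.0508) and with the replicate number as a block (0.0532). The Wald test of DESeq2 gave no adjusted p for Cxcl10 and Cxcl12 there. In Cxcl10 the groups overlapped, as replicate 2 of hCD2.SII was at 1.495 CPM and pDC ran from 0 to 2.18. The highest hCD2.SII library in Cxcl10 was replicate 1, which had the high fibroblast sum.

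The remaining CXC ligand genes were low. Of 6 on the list, Cxcl3 fell in PIB (-2.42 ± 0.30, log2), PIP (-1.74 ± 0.22) and C9a.SII (-2.78 ± 0.65) from 4.84 to 7.63 CPM in C9a.MEF. Cxcl15 fell in the same 3 sets, and Pf4 rose in PIP alone among the 3 (2.61 ± 0.24) to 3.68 to 5.25 CPM. In cDC1 and cDC2 none of the 6 was expressed enough to be tested.

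Across the 41 group means (log2 CPM), the members were like each other to different degrees. Transduced groups of one line came from MEFs of that line, and the labels do not say whether groups shared cultures. The means include the 3 libraries whose factors went against the label. Cxcl5 and Cxcl12 had a Pearson r of 0.902, Cxcl12 and Cxcl14 of 0.853, Cxcl1 and Cxcl2 of 0.843 and Cxcl5 and Cxcl14 of 0.808. The lowest was -0.377, between Cxcl14 and Cxcl16. Among 10552 genes searched, those most like Cxcl5 were Fzd2 (0.953), the collagen cross-linking enzyme gene Lox (0.952) and the fibrillin gene Fbn1 (0.948). Among the genes most like Cxcl12 were Gap43 (0.934) and Socs5 (0.927), and Cxcl14 was most like Galnt18 (0.953), Ccn5 (0.947) and Ptprz1 (0.932).

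For Cxcl1 the nearest genes were Pdgfd (0.959), Gstm2 (0.953) and Casp12 (0.952), and for Cxcl2 they were C1qtnf1 (0.920), the interleukin-1 receptor antagonist gene Il1rn (0.912) and Vat1l (0.910). Cxcl16 was most like Timd4 (0.947), which encodes a phosphatidylserine receptor of macrophages, Arf3 (0.943) and Gas2l3 (0.936). Cxcl13 was most like Cyp2f2 (0.897), Pik3r1 (0.893) and Npy1r (0.884), Cxcl9 like Deptor (0.909), Pomp (0.871) and Gmpr2 (0.860), and Cxcl10 like Copa (0.890), Eprs (0.886) and the guanylate-binding protein gene Gbp2 (0.880). These are descriptions over group means and carry no test.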

How the data were processed

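RNA-seq was done on sorted mouse cells, with RNA of 5000 cells per extraction and a strand-keeping library kit made for picograms of total RNA, per the labels' protocols. The values are raw gene counts as deposited by the authors, whole numbers per Ensembl identifier. The submitters' processing notes name STAR 2.7.9a, Salmon 1.10.1 and build mm10, without roles, and the strand setting and annotation are not given in the sources used here. Of the identifiers 4981 had no gene name, with a median of 13.2% of a library's counts (5.98 to 32.1%).

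Samples were grouped by the labels. Levels are CPM of the library total, or RPKM by union exon length in GENCODE M21. Each of 27 comparisons and 3 differences of changes was fitted on its own groups with edgeR 4.0.16 (R 4.3.3), using TMM scaling, the low-count filter filterByExpr and the robust quasi-likelihood F test, with Benjamini-Hochberg adjustment over all genes tested. A call needed an adjusted p under 0.05 and a 2-fold change (differences of changes: the adjusted p alone). Scripts were tested on simulated data. Alternatives were DESeq2 1.42.0 (size factors, or its Wald test), no filter, a single fit of all 41 groups, a block for the replicate number, and fits without each library in turn or without the 2 libraries under 2000000 counts.

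The text names the 9 chemokines, up to 4 called genes of largest change per gene list and comparison, and the 3 genes of most similar pattern per chemokine (mean CPM of at least 5, named genes). For Cxcl12, 1 gene of similar pattern is not reported here. Genes named beyond this rule (the overlapping genes, sort markers, transduced factors, and list members named for low or uncalled values) were chosen after their values were seen. The members and lists were chosen with earlier results of these data known. The promoter window, the minimum median of 1 CPM for single-library flags, and the label check (Irf4 over 100 CPM, Spib over 10 CPM) were chosen after seeing the data. Promoters matched 7 of the 9 genes in RefSeq. By the rule that every same-numbered pair has an r over 0.1, libraries deviated together only between hCD2.SII day 9 YFP+ CD45+ cells and hCD2.MEF (0.109, 0.112 and 0.218). Between the tdTomato+ CD45+ and tdTomato+ gates of PIB day 9 the r ran from 0.0282 to 0.365, with a median of 0.0776. The rule does not show that other same-numbered libraries were unlinked. The pairing comes from the replicate numbers in the labels.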

Additional observations from a re-analysis of the deposited data

Results flagged for a closer look

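In 48 of 237 sets of one gene in one group (groups of 4 or 5 libraries, median of at least 1 CPM), a single library stood apart by Dixon's criterion, which chance alone meets in about 1 in 20. All values below are CPM of the library total, with the range of the other libraries of the group. No explanation was tested.

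In replicate 5 of C9a.SII day 3 CD45+, Cxcl1 was at 29.43 (2.66 to 3.86), Cxcl5 was at 41.15 (5.29 to 9.77), Cxcl12 was at 126.8 (33.4 to 40.6), Cxcl14 was at 9.843 (0.888 to 2.80) and Cxcl16 was at 15.16 (8.17 to 9.05). For replicate 5 of PIP day 3 tdTomato+ the values were Cxcl5 at 26.3 (4.57 to 6.36), Cxcl10 at 2.849 (9.65 to 12.1), Cxcl12 at 76.49 (35.2 to 41.4), Cxcl14 at 5.041 (1.28 to 1.81) and Cxcl16 at 12.93 (421 to 443). Replicate 4 of PIB day 6 tdTomato+ held Cxcl5 at 2.829 (51.6 to 60.1), Cxcl12 at 25.16 (95.5 to 101.6), Cxcl14 at 0.1529 (5.84 to 6.56) and Cxcl16 at 542.1 (183 to 187). In replicate 5 of C9a.SII day 6 CD45+, Cxcl1 was at 27.22 (3.47 to 10.1), Cxcl5 was at 50.53 (7.41 to 11.9) and Cxcl12 was at 92.63 (29.8 to 40.7). For replicate 5 of PIP day 3 CD45+ the values were Cxcl5 at 35.13 (2.39 to 5.83), Cxcl12 at 141.1 (32.5 to 45.2) and Cxcl14 at 11.18 (0.867 to 1.22). Replicate 4 of PIP day 6 tdTomato+ CD45+ held Cxcl5 at 44.36 (1.69 to 2.95), Cxcl10 at 22.11 (10.5 to 11.9) and Cxcl12 at 101.2 (20.7 to 24.8). In replicate 5 of C9a.SII day 6 tdTomato+, Cxcl2 was at 14.18 (0.879 to 1.97) and Cxcl16 was at 369.6 (14.5 to 28.4). For replicate 4 of PIB day 3 CD45+ the values were Cxcl13 at 0 (2.07 to 2.23) and Cxcl16 at 214.7 (314 to 334).

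Replicate 5 of PIB day 9 tdTomato+ held Cxcl9 at 5.405 (2.84 to 3.35) and Cxcl13 at 206.1 (12.96 to 28.3). In replicate 5 of PIB day 9 tdTomato+ CD45+, Cxcl1 was at 12.37 (37.98 to 44.8) and Cxcl13 was at 856.4 (202 to 273). For replicate 5 of PIP day 6 CD45+ the values were Cxcl5 at 22.62 (1.87 to 4.71) and Cxcl12 at 76.36 (23.7 to 33.8). Replicate 4 of PIP day 6 tdTomato+ held Cxcl5 at 48.76 (1.05 to 2.14) and Cxcl9 at 2.233 (3.41 to 3.53). In replicate 1 of PIP day 9 tdTomato+, Cxcl1 was at 19.89 (42.2 to 45.3) and Cxcl12 was at 16.14 (24.7 to 26.2). For replicate 5 of hCD2.SII day 3 YFP+ the values were Cxcl1 at 4.943 (16.4 to 21.04) and Cxcl12 at 44.96 (174 to 186). Replicate 4 of C9a.SII day 6 tdTomato+ CD45+ held Cxcl12 at 74.71 (33.96 to 37.7). In replicate 3 of PIB day 3 CD45+, Cxcl14 was at 2.964 (1.28 to 1.55). For replicate 2 of PIB day 6 tdTomato+ CD45+ the values were Cxcl12 at 101.5 (95.7 to 96.4). Replicate 2 of PIB day 9 tdTomato+ held Cxcl16 at 393 (170 to 224). In replicate 1 of PIP day 6 tdTomato+ CD45+, Cxcl2 was at 8.782 (10.3 to 10.5). For replicate 1 of hCD2.MEF the values were Cxcl14 at 45.63 (36.1 to 37.6). Replicate 3 of hCD2.SII day 3 YFP+ held Cxcl14 at 25.6 (15.3 to 16.8). In replicate 3 of hCD2.SII day 6 YFP+, Cxcl2 was at 3.158 (1.69 to 1.88). For replicate 4 of hCD2.SII day 6 YFP+ the values were Cxcl12 at 26.94 (188 to 216).

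Of these libraries, PIP day 3 tdTomato+ replicate 5, PIB day 6 tdTomato+ replicate 4 and C9a.SII day 6 tdTomato+ replicate 5 are the 3 whose transduced factors went against the label. The part of these values in any result was not tested.

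The change from day 3 to day 9 differed between PIB and PIP in reporter+ CD45+ cells for Cxcl10, by -1.31 on the log2 scale, and for Cxcl14, by 3.17, in a test of the difference itself (edgeR, adjusted p = 0.024 and 0.016). In 1 fit over all groups neither was called (adjusted p = 0.313 and 0.118). Cxcl10 was also lost with the replicate number as a block (0.0686), without PIB day 3 replicate 4 (0.0579) and without PIP day 9 replicate 1 (0.0511), and without PIP day 3 replicate 3 the value of Cxcl14 was 2.23 (adjusted p = 0.0458).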

How the results depend on the processing

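Leaving out 1 library kept 1851 single-gene values on the same side of the call and in the same direction, made 35 called, lost 43 and turned 45. For the replicate block these numbers were 204, 4, 6, 7, and for 1 fit over all groups 195, 9, 14, 3. With DESeq2 size factors none was lost or turned. The Wald test of DESeq2 gave no adjusted p for 13 of the values, 2 of them called by edgeR (Cxcl10 and Cxcl12 in hCD2.SII against pDC), and lost and turned none of the others. Its numbers of called chemokines leave the 13 out. Among the changes of sign, 52 were of values called in neither setting. TMM scaling over all libraries moved 28 of 369 group means of a chemokine by over 1 SD. Genes at 0 to 3 counts in a library are limited by depth there. Most Cxcl13 values outside PIB were of this kind, as was Cxcl9 in 28 of 37 C9a.SII and 19 of 35 hCD2.SII libraries. The 37 leave out the C9a.SII library whose factors went against the label. The percent of genes tested in a setting that were called (given where their count moved by over 1.5 times), the number of chemokines called, and the log2 values of single chemokines, that moved with a setting follow, all for reporter+ CD45+ cells at day 9 unless a day is named, and the cause was not tested.

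The Wald test of DESeq2 gave, for hCD2.SII day 9 against hCD2.MEF 2 (chemokines lower), for PIB between the days 12.6% (all genes) and 2 (chemokines higher), for PIP between the days 2 (chemokines lower). Also, for C9a.SII between the days 1.26% (all genes), for hCD2.SII between the days 1 (chemokines higher), for PIB day 9 between the gates 2 (chemokines higher). Further, for PIP day 9 between the gates 0.505% (all genes), for C9a.SII day 9 between the gates 0.723% (all genes) and 2 (chemokines lower), for cDC2 against pDC 1 (chemokines lower). And for C9a.SII day 9 against pDC 34.99% (all genes) and 5 (chemokines higher), for hCD2.SII day 9 against pDC 1 (chemokines higher), for the line difference of SII 3.36% (all genes). And for the day change of PIB against C9a.SII 7.46% (all genes) and 1 (chemokines). With DESeq2 size factors the count moved for PIB between the days 2 (chemokines higher). Without the filter on low counts the values were, for PIB between the days 7.05% (all genes) and 3 (chemokines higher), for PIP between the days 3.40% (all genes) and 1 (chemokines lower), for C9a.SII between the days 0.291% (all genes). Also, for hCD2.SII between the days 4.69% (all genes) and 3 (chemokines higher), for PIB day 9 between the gates 0 (chemokines lower), for PIP day 9 between the gates 0.339% (all genes). Further, for C9a.SII day 9 between the gates 0.471% (all genes), 2 (chemokines lower) and 0.023 (Cxcl14), for cDC1 against cDC2 23.8% (all genes), for cDC2 against pDC 1 (chemokines lower). And for PIB day 9 against cDC1 41.2% (all genes), for C9a.SII day 9 against pDC 25.005% (all genes) and 5 (chemokines higher), for C9a.MEF against hCD2.MEF 1.74% (all genes). And for the day change of PIB against PIP 5 (chemokines), for the day change of PIB against C9a.SII 0.990% (all genes) and 0.027 (Cxcl12). With the replicate number as a block they were, for hCD2.SII day 9 against hCD2.MEF 0 (chemokines lower), for PIB between the days 2 (chemokines higher), for PIP between the days 3.36% (all genes). Also, for C9a.SII between the days 0.0129% (all genes), for hCD2.SII between the days 2.87% (all genes), -0.32 (Cxcl1), -1.33 (Cxcl5), -0.15 (Cxcl10), -0.063 (Cxcl12) and -1.79 (Cxcl14), for PIB day 9 between the gates 2 (chemokines higher) and 0 (chemokines lower). Further, for PIP day 9 between the gates 0.00610% (all genes), for C9a.SII day 9 between the gates 0.0385% (all genes) and 1.04 (Cxcl14), for hCD2.SII day 9 between the gates 4.07% (all genes) and 0 (chemokines lower). And for the line difference of SII 0.304% (all genes), for the day change of PIB against C9a.SII 2.59% (all genes), 1 (chemokines) and 0.0068 (Cxcl12). Without the libraries under 2000000 counts they were, for C9a.SII between the days 0.717% (all genes) and -0.25 (Cxcl14), for PIB against C9a.SII 0.041 (Cxcl14), for C9a.SII day 9 between the gates 0.237% (all genes). Also, for C9a.SII day 9 against pDC 48.4% (all genes) and 6 (chemokines higher), for the line difference of SII 2.03% (all genes). A single fit over all groups gave, for hCD2.SII day 9 against hCD2.MEF 5 (chemokines lower), for PIP between the days 1.89% (all genes), for C9a.SII between the days 1.59% (all genes) and -0.0012 (Cxcl14). Also, for hCD2.SII between the days 5.78% (all genes) and 1 (chemokines higher), for PIB against PIP 3 (chemokines higher), for PIP against C9a.SII 0 (chemokines lower). Further, for PIB day 9 between the gates 0.443% (all genes), 2 (chemokines higher) and 0 (chemokines lower), for C9a.SII day 9 between the gates 0.905% (all genes), for hCD2.SII day 9 between the gates 3 (chemokines lower). And for cDC1 against cDC2 32.8% (all genes), 1 (chemokines higher) and -0.17 (Cxcl10), for cDC1 against pDC 16.5% (all genes), for cDC2 against pDC 43.6% (all genes). And for C9a.SII day 9 against pDC 45.6% (all genes) and 6 (chemokines higher), for hCD2.SII day 9 against pDC 39.2% (all genes) and 7 (chemokines higher), for C9a.MEF against hCD2.MEF 0.0696% (all genes) and 0 (chemokines higher). And for the day change of PIB against PIP 3.01% (all genes) and 0 (chemokines), for the day change of PIB against C9a.SII 0.035 (Cxcl12).

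Leaving out 1 library at a time gave, for hCD2.SII day 3 against hCD2.MEF -0.34 to 0.011 (Cxcl16), for C9a.SII day 9 against C9a.MEF -0.031 to 0.24 (Cxcl16). Values ran, for hCD2.SII day 9 against hCD2.MEF 13.6% to 32.9% (all genes), 0 to 1 (chemokines higher), 0 to 6 (chemokines lower) and -0.85 to 0.20 (Cxcl2), for PIB between the days 1 to 2 (chemokines higher). Ranges were, for PIP between the days 3.92% to 7.05% (all genes), 0 to 2 (chemokines lower) and -0.051 to 0.93 (Cxcl9), for C9a.SII between the days 0% to 1.56% (all genes), -0.29 to 0.37 (Cxcl10) and -0.25 to 0.37 (Cxcl14). The range was, for hCD2.SII between the days 3.35% to 15.7% (all genes), 0 to 1 (chemokines higher), 0 to 4 (chemokines lower), -1.99 to 1.42 (Cxcl1), -4.24 to 1.77 (Cxcl5), -1.64 to 1.45 (Cxcl10), -0.91 to 1.06 (Cxcl12) and -4.30 to 0.63 (Cxcl14), for PIB against C9a.SII -0.47 to 0.041 (Cxcl14). Values ran, for PIP against C9a.SII 0 to 1 (chemokines lower), for PIB day 9 between the gates 1.08% to 2.31% (all genes), 1 to 2 (chemokines higher) and 0 to 1 (chemokines lower). Ranges were, for PIP day 9 between the gates 0.00588% to 0.221% (all genes) and -0.24 to 0.30 (Cxcl10), for C9a.SII day 9 between the gates 0.0309% to 0.237% (all genes), -0.84 to 0.072 (Cxcl10), -0.38 to 0.073 (Cxcl12) and -0.39 to 1.84 (Cxcl14). The range was, for hCD2.SII day 9 between the gates 6.83% to 28.7% (all genes), 0 to 1 (chemokines higher) and 0 to 7 (chemokines lower), for cDC1 against cDC2 -0.062 to 0.52 (Cxcl10). Values ran, for cDC1 against pDC 8.61% to 21.9% (all genes) and 2 to 4 (chemokines higher), for cDC2 against pDC 15.8% to 40.3% (all genes). Ranges were, for C9a.SII day 9 against pDC 3 to 6 (chemokines higher), for hCD2.SII day 9 against pDC 20.4% to 40.9% (all genes). The range was, for C9a.MEF against hCD2.MEF 2.08% to 4.61% (all genes), for the line difference of SII 0.299% to 8.69% (all genes), 0 to 5 (chemokines), -2.96 to 0.49 (Cxcl1), -3.35 to 2.71 (Cxcl5), -1.53 to 1.59 (Cxcl10), -1.19 to 0.80 (Cxcl12) and -2.93 to 2.04 (Cxcl14). Values ran, for the day change of PIB against PIP 1 to 4 (chemokines), for the day change of PIB against C9a.SII 1.97% to 10.9% (all genes), 0 to 1 (chemokines), -0.81 to 0.15 (Cxcl9) and -0.19 to 0.13 (Cxcl12).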
